A study of Mus musculus with 768 samples.

Results

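The Gimap genes, named for GTPases of immunity-associated proteins, encode GTP-binding proteins made mainly in lymphocytes. Gimap1, Gimap3, Gimap4, Gimap5, Gimap6, Gimap7, Gimap8 and Gimap9 were taken by name from the count table, 8 of its 23127 genes, and were followed over every plate of the study, per cell and summed. The study sequenced 768 single thymocytes of C57BL/6 mice, 6 to 8 weeks old, on 8 plates of 96 cells, and asked how deletion of Tcf7 at different stages alters gene expression. TCF1, the protein made from Tcf7, is a transcription factor that acts when thymic progenitors enter the T-cell lineage.

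All cells were sorted as CD45+ and negative for lineage markers, CD4 and CD8 (double negative, DN). The DN1 gate took CD25-CD44+ cells, and the DN2-3 gate took CD25+ cells. Wild type (WT) and Tcf7-/- mice, the latter with a germline deletion, gave 1 plate for each gate. Mice labelled Vav-cre; Tcf7fl/fl, with a recombinase driven in blood cells generally, also gave 1 plate for each gate. Mice labelled Lck-cre; Tcf7fl/fl, with a recombinase driven by a T-lineage promoter, gave 2 plates of the DN2-3 gate and none of the DN1 gate. No animal is named, so each plate is treated as 1 library and its cells as parts of that library. Genotypes and gates are therefore compared with no test. A member is called higher or lower where its log2 ratio, computed with 10 added to each CPM (counts of a gene scaled to a fixed total per library), passes 2-fold. Intervals are 95% and cover counting error only.

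GIMAP proteins sit largely on intracellular membranes, and several govern the survival of lymphocytes. GIMAP5 is needed for the persistence of peripheral T cells, and mouse Gimap3 is its closest paralog, both having been tied to Bcl2-family proteins. GIMAP1 is needed by mature B and T lymphocytes, GIMAP4 has been tied to the execution of apoptosis, and GIMAP6 to autophagy through the Gabarap family.

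The 8 genes lie in 1 cluster on chromosome 6 of the mouse genome (GRCm38, GENCODE M21), which spans 123.62 kb from 48647234 to 48770851. Gimap8 (48647234 to 48660875), Gimap9 (48676129 to 48679114), Gimap4 (48684549 to 48692060), Gimap7 (48718621 to 48724636), Gimap1 (48739054 to 48743795) and Gimap5 (48746197 to 48754210) are on the plus strand. Gimap6 (48701582 to 48708225) and Gimap3 (48764464 to 48770851) are on the minus strand. Counts of 3 members are uncertain, since the annotated gene Gm28053 overlaps Gimap7, Gimap1 and Gimap5 on the same strand, and Gimap1os overlaps Gimap1 on the other. Neither overlapping gene has an entry in the count table, and the strand setting of the counting is not given in the sources used here. Reads that Gimap3 and Gimap5 share may also have been split between these paralogs.

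Promoter windows (250 bases before to 50 after the start, RefSeq, GRCm38.p6) are printed for 5 members: Gimap3 and Gimap4, whose level differed most between the gates, Gimap1 and Gimap9, whose level differed least in WT and Tcf7-/-, and Gimap7, whose level varied most between genotypes. Capitals mark the letters TCAAAG (a TCF/LEF core), TGTGGT (a RUNX core) or CGGAAG (an ETS core), read on either strand.
Gimap3, chr6:48770802-48771101, minus strand: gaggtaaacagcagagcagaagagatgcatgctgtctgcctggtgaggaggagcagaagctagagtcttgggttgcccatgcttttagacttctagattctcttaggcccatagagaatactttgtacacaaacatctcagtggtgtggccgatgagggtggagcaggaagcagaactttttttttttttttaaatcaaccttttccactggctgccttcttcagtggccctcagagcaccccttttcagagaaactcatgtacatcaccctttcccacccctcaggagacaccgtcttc
Gimap4, chr6:48684328-48684627, plus strand: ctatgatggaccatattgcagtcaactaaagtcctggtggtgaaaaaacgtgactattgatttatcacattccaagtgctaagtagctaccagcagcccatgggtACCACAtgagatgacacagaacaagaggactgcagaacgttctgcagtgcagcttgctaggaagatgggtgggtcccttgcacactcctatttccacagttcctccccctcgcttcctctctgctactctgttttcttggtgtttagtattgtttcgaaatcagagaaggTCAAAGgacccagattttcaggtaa
Gimap1, chr6:48738797-48739096, plus strand: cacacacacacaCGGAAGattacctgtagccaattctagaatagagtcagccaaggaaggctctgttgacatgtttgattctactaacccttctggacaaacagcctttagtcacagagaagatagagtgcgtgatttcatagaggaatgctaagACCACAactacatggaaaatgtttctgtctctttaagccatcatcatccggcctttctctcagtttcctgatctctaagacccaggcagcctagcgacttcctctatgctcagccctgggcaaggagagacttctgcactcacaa
Gimap9, chr6:48675885-48676184, plus strand: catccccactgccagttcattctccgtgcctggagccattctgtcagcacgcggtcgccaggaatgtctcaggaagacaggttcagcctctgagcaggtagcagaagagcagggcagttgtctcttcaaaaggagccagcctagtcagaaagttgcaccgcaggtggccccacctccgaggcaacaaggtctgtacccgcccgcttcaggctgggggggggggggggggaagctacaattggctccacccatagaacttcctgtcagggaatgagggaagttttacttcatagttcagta
Gimap7, chr6:48718371-48718670, plus strand: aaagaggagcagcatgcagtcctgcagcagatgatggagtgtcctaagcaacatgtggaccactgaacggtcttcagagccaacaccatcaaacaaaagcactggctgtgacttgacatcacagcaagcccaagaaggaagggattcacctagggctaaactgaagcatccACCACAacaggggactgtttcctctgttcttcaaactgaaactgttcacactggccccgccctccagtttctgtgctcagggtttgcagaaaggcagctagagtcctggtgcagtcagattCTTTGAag
The TCF/LEF letters stood in 2 of the 9 windows of the family, at base 25 after the start of Gimap4 and base 42 after that of Gimap7, and in 16% of 32851 promoter windows of all genes. The RUNX letters stood in the windows of Gimap1, Gimap4 and Gimap7, against 16.8% of all windows. The ETS letters stood in the windows of Gimap1, Gimap6 and Gimap8, against 16.9% of all windows. The windows of Gimap3, Gimap5 and Gimap9 held none of these letters. A match is a description of the letters and not a bound site.

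A minimum of 1000 detected genes left 675 of the 768 cells, with 58 to 96 per plate. Summed counts ranged from 1547512 in Vav-cre DN1 to 8371808 in Tcf7-/- DN2-3. Cd44 stood at 193 to 269 CPM in the DN1 libraries and at 0 to 4.42 CPM in the DN2-3 libraries. Il2ra, which encodes CD25, stood at 225 to 419 CPM in the DN2-3 libraries and at 9.70, 60.6 and 169 CPM in WT, Tcf7-/- and Vav-cre DN1. Tcf7 itself stood at 134, 98.6 and 368 CPM in WT, Tcf7-/- and Vav-cre DN1, and at 862, 122 and 964 CPM in the same genotypes in DN2-3. It stood at 762 and 658 CPM on the Lck-cre plates. Only Tcf7-/- DN2-3 was thus at least 2-fold below WT of its gate. Tcf7-/- DN1 was below WT DN1 by less than 2-fold, Vav-cre DN1 was over 2-fold above it, and the Vav-cre and Lck-cre DN2-3 libraries were within 2-fold of WT DN2-3. Each direction given below for these libraries is for the library so labelled. Whether the counted part of Tcf7 includes the deleted exons is not given in the sources used here. The Tcf7-/- entries carry other label fields and list 1 genome build name where the rest list both, so genotype and any handling particular to those plates cannot be told apart.

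The summed Gimap level was higher in DN1 than in DN2-3 in WT and Tcf7-/-, and Gimap3 and Gimap4 made up most of the difference. In Vav-cre the family's level was close in both gates, although Gimap3 and Gimap4 differed there too. In the DN1 gate the summed family stood at 2716 CPM (2678 to 2754) in WT, 1448 CPM (1412 to 1485) in Tcf7-/- and 1131 CPM (1079 to 1185) in Vav-cre. In DN2-3 it stood at 802 CPM in WT, 620 CPM in Tcf7-/- and 993 CPM in Vav-cre, and at 511 and 701 CPM on the Lck-cre plates. All 3 DN1 libraries lay above all 5 DN2-3 libraries, but Vav-cre DN1 was only 1.14-fold above Vav-cre DN2-3. That order turned without the highest cell of each gene, where Vav-cre DN1 stood at 814 CPM against 880 CPM for DN2-3, and without cells positive for natural killer receptor genes (log2 ratio of DN2-3 to DN1 0.45, in place of -0.19). The Lck-cre plates, which share genotype and gate, differed by 1.37-fold, which is more than any step between neighbours below WT DN1 in this order. Those steps were 1.13-fold to 1.28-fold, and WT DN1 was 1.88-fold above Tcf7-/- DN1. None of the 5 members measured in the Lck-cre pair differed by 2-fold between the plates, where 2.80% of all measured genes were higher and 2.59% lower. All 5 nevertheless stood higher on plate 2, with a median log2 ratio of 0.66 beside 0.0014 for all measured genes.

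Gimap3 and Gimap4 were nearly confined, among these libraries, to the DN1 gate. In DN1, Gimap3 stood at 459 CPM in WT, 217 in Tcf7-/- and 187 in Vav-cre. In DN2-3 it stood at 2.61 CPM in WT, 8.36 in Tcf7-/- and 3.88 in Vav-cre, with no count on either Lck-cre plate, where 3 counts would be 0.491 and 0.514 CPM. The gates did not overlap, and how many of all genes share this, here and for the members below, was not counted. WT DN1 was 176-fold (103 to 330) above WT DN2-3 on the unadjusted CPM, a log2 ratio of -5.22 for DN2-3 against DN1 with 10 added. The WT DN2-3 level rests on 13 counts in 2 cells, with 84.6% of them in 1 cell.

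Gimap4, tied to the execution of apoptosis, had a similar split. In DN1 it stood at 893 CPM in WT, 387 in Tcf7-/- and 215 in Vav-cre. In DN2-3 it stood at 6.83 CPM in WT, 38.9 in Tcf7-/- and 30.6 in Vav-cre, at 0 on Lck-cre plate 1 and at 0.514 (3 counts in 1 cell) on plate 2. WT DN1 was 131-fold (93.5 to 189) above WT DN2-3, and no DN2-3 library reached the lowest DN1 library. The WT DN2-3 level rests on 34 counts in 3 cells, 22 of them in 1 cell positive for natural killer receptor genes. In Vav-cre DN1 a single cell held 59.2% of the Gimap4 counts and 40.3% of the Gimap3 counts.

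Gimap8, the member with several GTPase domains in a row, was lower in DN2-3 as well. Its levels were 86.3, 41.6 and 74.3 CPM in WT, Tcf7-/- and Vav-cre DN1, and 1.81, 8.24, 6.39, 2.94 and 13.9 CPM in WT, Tcf7-/-, Vav-cre and the Lck-cre plates of DN2-3. The gates did not overlap. On Lck-cre plate 2, 81.5% of its counts came from 1 cell.

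Gimap5, the survival factor of T cells, showed a smaller difference in the same direction. Its levels were 191, 138 and 122 CPM in the DN1 libraries of WT, Tcf7-/- and Vav-cre. They were 76.6, 28.1 and 42.4 CPM in DN2-3 of the same genotypes, and 36.6 and 63.9 CPM on the Lck-cre plates. The gates again did not overlap, and the log2 ratios of DN2-3 to DN1 were -1.22, -1.96 and -1.33 in WT, Tcf7-/- and Vav-cre. Without cells positive for natural killer receptor genes they were -0.29, -1.29 and -1.01, so that the call was lost in WT.

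Gimap1, Gimap6 and Gimap9 were detected in both gates, and their ranges overlapped. Gimap1 stood at 377, 244 and 222 CPM in DN1 of WT, Tcf7-/- and Vav-cre, against 277, 191 and 339 CPM in DN2-3 and 176 and 230 CPM on the Lck-cre plates. Gimap9 stood at 255, 173 and 104 CPM in DN1, against 277, 217 and 301 CPM in DN2-3 and 194 and 206 CPM on the Lck-cre plates. Both genes were thus at similar levels in WT cells of either gate, with log2 ratios of -0.43 and 0.11. Gimap6, tied to autophagy, stood at 421, 222 and 204 CPM in DN1, against 149, 127 and 231 CPM in DN2-3 and 101 and 183 CPM on the Lck-cre plates. It passed 2-fold between the gates in WT alone, where the log2 ratio was -1.44.

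Gimap7 followed no gate. In DN1 it stood at 32.3 CPM in WT, 24.3 in Tcf7-/- and 1.29 in Vav-cre, where only 2 counts in 1 cell were found. In DN2-3 it stood at 11.9 CPM in WT, 1.67 in Tcf7-/-, 38.3 in Vav-cre, 1.31 on Lck-cre plate 1 and 3.08 on plate 2. The highest level of this gene was therefore in Vav-cre DN2-3, where 32.9% of cells had a count, against 11.4% in WT DN2-3 and 1.72% in Vav-cre DN1.

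**Figure D1:**
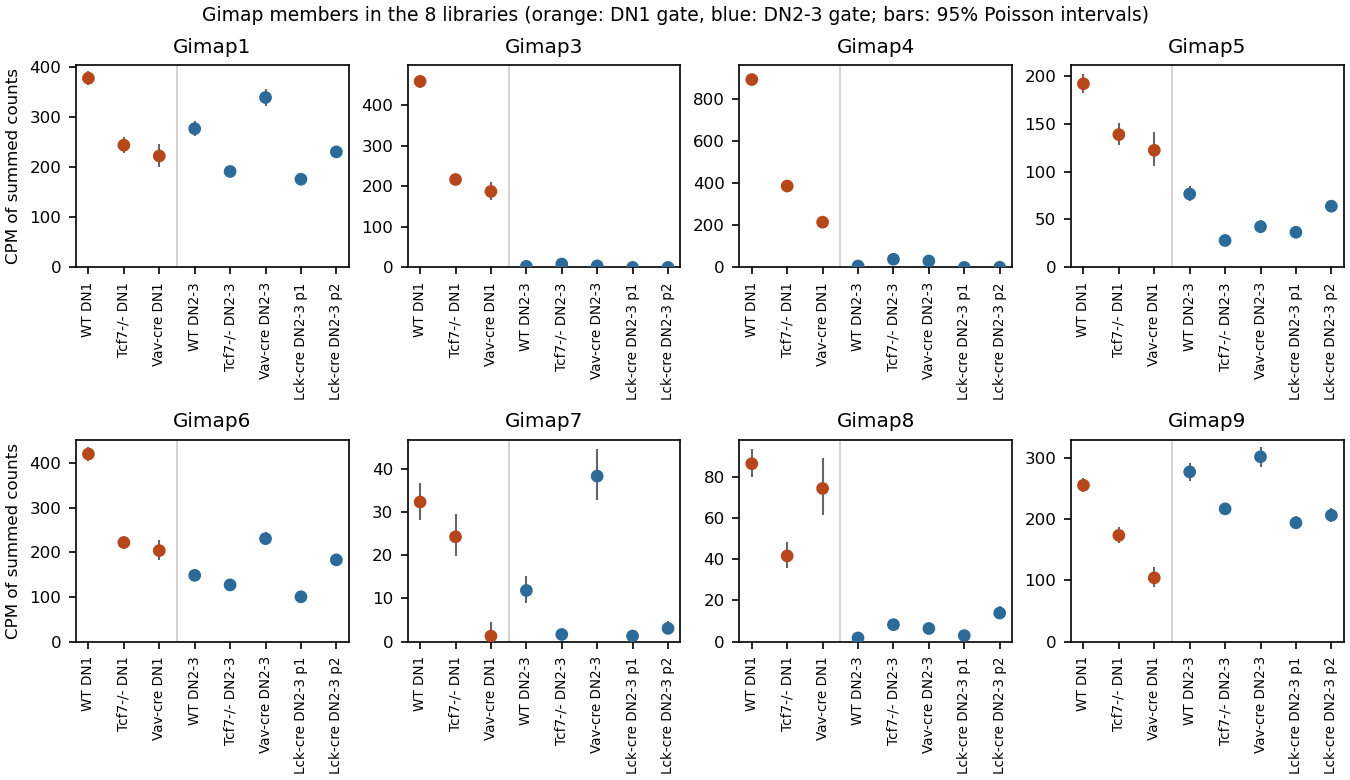
CPM of the summed counts (vertical axis, starting at 0) of each Gimap member in the 8 libraries, with 95% Poisson intervals as bars. Gimap3, Gimap4, Gimap5 and Gimap8 have every DN1 library above every DN2-3 library, whereas Gimap1, Gimap6, Gimap7 and Gimap9 overlap between the gates. The share of all genes without such overlap was not counted.

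Counted against the whole table, 5 of 8 members were at least 2-fold lower and none higher in WT DN2-3 than in WT DN1, where 11.7% of 8702 measured genes were lower and 16.3% higher. In Tcf7-/-, the members lower in DN2-3 were also 5 of 8, with none higher, against 17.1% lower and 8.14% higher among all measured genes. In Vav-cre, 4 of 8 were lower and 2 higher, Gimap7 and Gimap9, against 24.7% lower and 15.9% higher. The median log2 ratio of the members was -1.33 in WT, -1.53 in Tcf7-/- and -0.58 in Vav-cre, beside 0.15, -0.12 and -0.18 over all measured genes. Gimap3, Gimap4, Gimap5 and Gimap8 were lower in DN2-3 in all 3 genotypes. Without cells positive for natural killer receptor genes, this held in all 3 for Gimap3 alone: Gimap5 lost the call in WT, Gimap8 in Tcf7-/- (-0.69 in place of -1.50) and Gimap4 in Vav-cre (0.12 in place of -2.47).

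**Figure D2:**
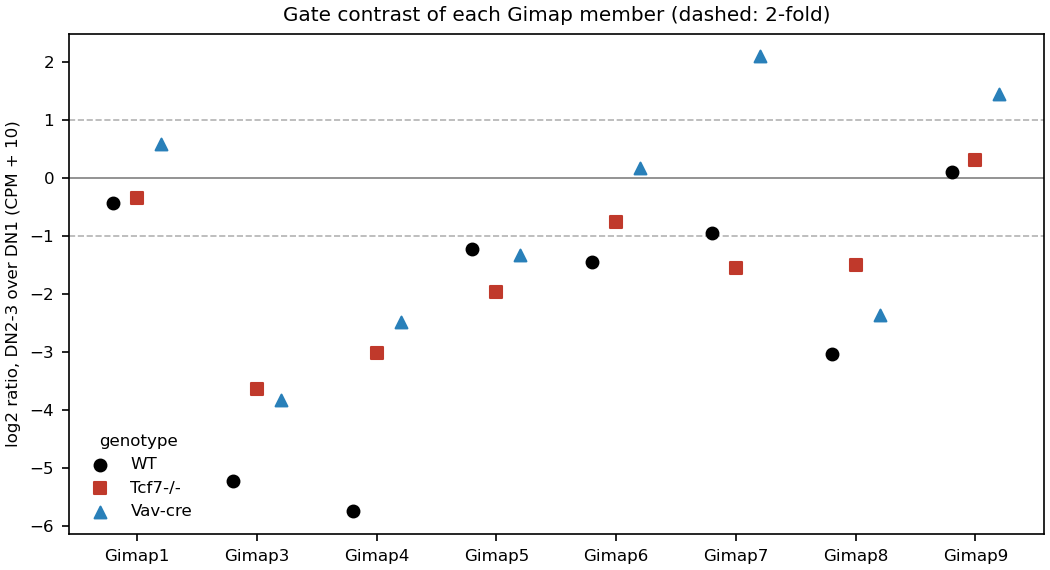
Log2 ratio of DN2-3 over DN1 (vertical axis, 10 CPM added to each level) for each member in WT, Tcf7-/- and Vav-cre, with dashed lines at 2-fold. Gimap3 and Gimap4 lie lowest in every genotype, with values from -5.75 to -2.47, and Gimap7 spreads most, from -1.55 to 2.1.

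The make-up of the Gimap RNA therefore differed between the gates. Gimap3, Gimap4 and Gimap8 together gave 53% of the family's DN1 counts in WT, 44.6% in Tcf7-/- and 42.2% in Vav-cre. In DN2-3 they gave 1.40% in WT, 8.95% in Tcf7-/- and 4.11% in Vav-cre, and 0.576% and 2.05% on the Lck-cre plates. Gimap1, Gimap5, Gimap6 and Gimap9 gave 90.8% to 99.2% of the family's counts in the DN2-3 libraries. These are shares of counts, which are not corrected for transcript length.

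**Figure D3:**
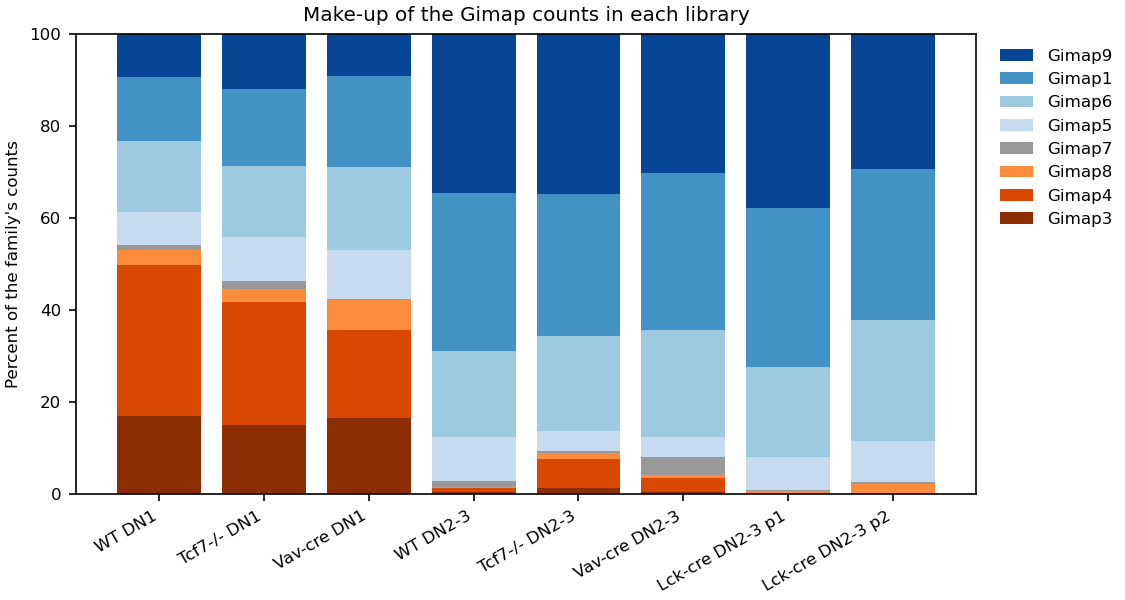
Percent of the family's counts (vertical axis) that each member gave in each library, as stacked bars. The orange segments, Gimap3, Gimap4 and Gimap8, make up 42.2% to 53% of the DN1 bars and 0.576% to 8.95% of the DN2-3 bars.

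Single cells of WT DN1 held more members than those of any other library. The median cell held counts of 6 of the 8 members in WT DN1, of 4 in Tcf7-/- DN1 and of 2.5 in Vav-cre DN1, while the DN2-3 medians were 2 or 3. In the DN1 gate, 86% of WT cells held at least 5 members, against 44.8% in Tcf7-/- and 13.8% in Vav-cre. Depth moves with these values, since the median cell had 66572, 37088 and 19293 counts in the same libraries. With each cell thinned to 10000 counts the shares were 65.4%, 30.1% and 10.2%, and the medians 5, 3 and 2.

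**Figure D4:**
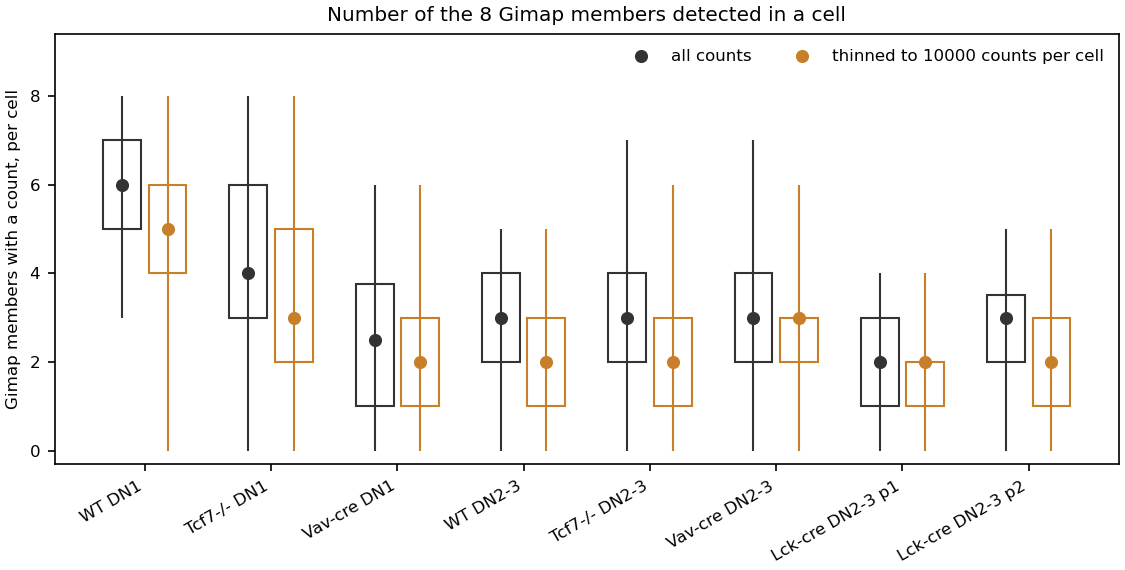
Number of the 8 members with a count in a cell (vertical axis), by library, for all counts and after thinning to 10000 counts per cell. Dots are medians, boxes the quartiles and lines the lowest and highest cell. The WT DN1 median is 6 before and 5 after thinning, the highest in both cases.

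With all counts, the share of cells with a count followed the summed levels for Gimap3 and Gimap4, but not for Gimap8 and Gimap5. Gimap8 was found in 25.9% of Vav-cre DN1 cells (74.3 CPM) against 32.3% of Tcf7-/- DN1 cells (41.6 CPM). Gimap5 was found in 34.4% of Tcf7-/- DN2-3 cells (28.1 CPM) against 25% of Vav-cre DN2-3 cells (42.4 CPM). In DN1, 98.8% of WT cells had a count of Gimap4, against 59.4% in Tcf7-/- and 24.1% in Vav-cre, or 88.9%, 46.6% and 22.4% of thinned cells. It was found in 3.41%, 15.1% and 14.5% of DN2-3 cells of the same genotypes, or 2.5%, 6.74% and 13.8% of thinned cells. More than 5 counts of Gimap4 were seen in 80.2% of WT DN1 cells, against 2.27% of WT DN2-3 cells. Gimap1 and Gimap9 were each found in 67% to 87.1% of the cells of every DN2-3 library.

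Among WT DN1 cells the members varied only loosely together. Over 81 thinned cells, the Spearman correlation of the 28 pairs of members ranged from -0.06 to 0.51 with a median of 0.11. These cells share 1 library, and the sparse counts limit such values, so they are given as a description.

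In the DN1 gate, the members stood below WT in the Tcf7-/- and Vav-cre libraries. All 8 log2 ratios were below 0 in Tcf7-/- DN1 against WT DN1, and 2 members, Gimap3 (-1.05) and Gimap4 (-1.19), were at least 2-fold lower, with none higher. Among all measured genes 5.34% were lower and 10.4% higher in that comparison, and the medians were -0.75 for the members and 0.07 for all genes. With cells thinned to 10000 counts neither member passed 2-fold, at -0.84 and -0.99. In Vav-cre DN1, 5 members were lower than in WT and none higher, against 9.64% lower and 18% higher among all genes. These were Gimap4 (-2.00), Gimap7 (-1.91), Gimap3 (-1.25), Gimap9 (-1.22) and Gimap6 (-1.01), and their median over 8 members was -1.11 beside 0.13 for all genes. Gimap6 lost the call with thinned cells, at -0.77. Gimap8 stood at -0.19, and at 0.52 with cells weighted equally. Both comparisons share the WT DN1 library.

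Set side by side, Vav-cre DN1 and Tcf7-/- DN1 differed by 2-fold in 1 member, Gimap7, which was lower in Vav-cre (-1.60). Among all measured genes 11.6% were lower and 13.8% higher. Leaving out the cell with the most counts of each gene moved Gimap4 from -0.82 to -1.81 in this comparison, the single Vav-cre cell named above being among those removed. The same step moved Gimap4 in Vav-cre DN1 against WT DN1 from -2.00 to -3.12 and Gimap3 from -1.25 to -1.87.

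Markers of cell types in the DN1 gate moved with these values. A cell is called NK receptor-positive here where at least 2 of 10 natural killer (NK) receptor genes, such as Klrd1, Klrk1 and Ncr1, have 5 counts or more. By this rule WT had 77 positive cells among its 86 DN1 cells, while Tcf7-/- had 35 (of 96) and Vav-cre 11 (of 58). Of these positive cells, 75 in WT, 30 in Tcf7-/- and 6 in Vav-cre were also positive for at least 2 of 3 CD3 genes. The summed level of the 10 genes was 4591, 1302 and 969 CPM, with 1, 0 and 3 of them at 0. In the DN2-3 libraries it was 0 to 20.7 CPM, and only 1 cell, in WT DN2-3, was positive.

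Within the NK receptor-positive cells the family's level was similar in the 3 DN1 libraries. It stood at 2866 CPM (2825 to 2908) in WT, 2551 CPM (2472 to 2631) in Tcf7-/- and 2810 CPM (2624 to 3006) in Vav-cre. The log2 ratios of the 8 members in Tcf7-/- against WT ranged from -0.37 to 0.38, and none reached 2-fold, where 10.7% of all genes measured in these cells were lower. In Vav-cre against WT Gimap7 (-1.41) and Gimap9 (-1.10) were lower and none higher, in 11 cells, where 33.2% of all genes were lower. Gimap4 stood at 954, 791 and 993 CPM in these cells of WT, Tcf7-/- and Vav-cre, and Gimap3 at 492, 480 and 747 CPM. Under a looser rule of 2 counts per marker, the family's level in the positive cells of Tcf7-/- DN1 was 1751 CPM.

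In the other DN1 cells the family's level was lower. It stood at 1444 CPM (9 cells) in WT, 776 CPM (61 cells) in Tcf7-/- and 725 CPM (47 cells) in Vav-cre. Gimap4 stood there at 384, 141 and 27.3 CPM and Gimap3 at 175, 56.9 and 52.2 CPM, in the same order of genotypes. With NK receptor-positive cells left out of every library, a choice made after seeing the data, 3 members were lower in DN2-3 than in DN1 in each genotype, in place of 5 in WT, 5 in Tcf7-/- and 4 in Vav-cre. Among all genes 16.3%, 18.1% and 25.5% were then lower. In Vav-cre 2 members, Gimap7 and Gimap9, were then higher in DN2-3, and none was in WT or Tcf7-/-. The share of all genes higher was not counted in this setting. The log2 ratio of Gimap3 between the gates was -3.86 in WT, -1.86 in Tcf7-/- and -2.16 in Vav-cre, and that of Gimap4 was -4.97, -1.63 and 0.12. In Tcf7-/- DN1 against WT DN1, 4 members were then at least 2-fold lower in place of 2, against 14.1% of all genes. In Vav-cre DN1 against WT DN1, 3 were lower in place of 5, against 17.5% of all genes. Both of these rest on 9 cells on the WT side.

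**Figure D5:**
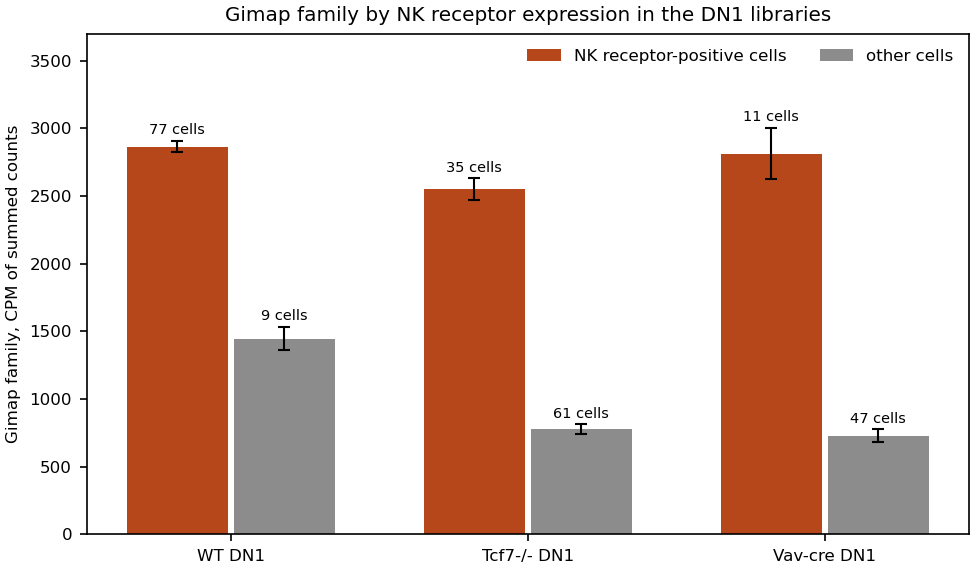
CPM of the summed family (vertical axis, bars start at 0) in NK receptor-positive and other cells of the 3 DN1 libraries, with 95% Poisson intervals and the number of cells. Positive cells stand at 2551 to 2866 CPM and the other cells at 725 to 1444 CPM.

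Other marker lists of the DN1 gate gave the following values. Cells with at least 2 of 10 genes of lymphoid tissue inducer (LTi) and related innate cells, such as Il23r, numbered 15 in WT, 32 in Tcf7-/- and 34 in Vav-cre DN1. Their family level was 1855, 862 and 854 CPM. Gimap4 stood at 579 CPM in such cells of WT, at 195 CPM in Tcf7-/- and at 4.84 CPM in Vav-cre. The class held different cells in each library, since 13 of the 15 WT cells were also NK receptor-positive, while Tcf7-/- had 8 such cells (of 32) and Vav-cre 2 (of 34). Cells positive for at least 2 of 8 progenitor genes, such as Kit and Flt3, had a family level of 837 CPM in Tcf7-/- (22 cells) and 743 CPM in Vav-cre (10 cells). CD3-positive cells stood above CD3-negative cells in all 3 libraries, at 2787 against 1305 CPM in WT, 1694 against 581 CPM in Tcf7-/- and 1925 against 795 CPM in Vav-cre. The CD3-negative cells numbered 6 in WT, 23 in Tcf7-/- and 45 in Vav-cre. The median per cell was closer in Tcf7-/-, at 999 against 871 CPM. It was 3024 against 697 CPM in WT and 1309 against 672 CPM in Vav-cre. The classes overlap, and in a summed library fewer cells of a type and less RNA per cell cannot be told apart.

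Counts from the other gate were looked for in Tcf7-/- DN1. Ptcra, which encodes the pre-T-cell receptor alpha chain of DN3 cells, had 212 counts there in 70 of 96 cells, 4.23% of its 5012 counts on the Tcf7-/- DN2-3 plate. Its counts in wells of the same barcode number on both plates had a Spearman correlation of 0.49 over 96 wells, while those of the Gimap members ranged from -0.13 to 0.23. At the Ptcra ratio, the DN2-3 plate would match 6.68% of the Gimap1 counts, 10.6% of the Gimap9 counts and 0.328% to 4.87% of the counts of the other members in Tcf7-/- DN1. All 8 plates use the same 96 barcode numbers. The part of this in the results was not tested.

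In Tcf7-/- DN2-3 against WT DN2-3, 6 members were measured (10 CPM or more in either library), of which Gimap4 was higher (1.54) and Gimap5 lower (-1.19). Among all measured genes 3.19% were higher and 10.5% lower. Gimap5 lost the call with thinned cells, at -0.37. Both calls were lost in the deposited log2 values averaged over cells, where the differences were 0.32 and -0.57. The family as a whole stood at 0.774-fold of WT, a difference smaller than the 1.37-fold between the Lck-cre plates.

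In Vav-cre DN2-3, Gimap4 (1.27) and Gimap7 (1.15) were higher than in WT and none of the 6 measured members was lower, against 5.77% higher and 10.5% lower among all genes. Gimap7 lost the call with thinned cells, at 0.88, and in the deposited log2 values the differences were 0.48 for Gimap4 and 0.73 for Gimap7. The median of the members was 0.44 beside -0.14 for all genes. In Lck-cre DN2-3, taken as the mean of both plates, none of 6 measured members passed 2-fold, against 0.935% higher and 3.48% lower among all genes. Its plates stood at 0.637-fold and 0.874-fold of the WT family level.

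The Gimap4 difference in DN2-3 came from few cells. Counts of Gimap3 or Gimap4 were found in 4 of 88 cells in WT, 18 of 93 in Tcf7-/-, 12 of 76 in Vav-cre, 0 of 91 on Lck-cre plate 1 and 1 of 87 on plate 2. In WT the 1 NK receptor-positive cell held 22 of the 47 counts. In Tcf7-/- 1 cell held 38.4% of the 396 counts, and the level of both genes together was 47.3 CPM with it and 29.8 CPM without it. All 10 Tcf7-/- cells with more than 5 counts were positive for at least 2 genes of the DN3 list (such as Ptcra and Rag1), and none of the 93 cells was NK receptor-positive. All 10 also had a count of Cd2, as did 65 of the 93 cells, and 8 had a count of Cd8b1, as did 54 of the 93. In Vav-cre, 4 of the 6 cells with more than 5 counts were positive for the DN3 list, 5 had a count of Cd2, as did 52 of the 76 cells, and 3 had a count of Cd8b1, as did 28 of the 76. Cd2 and Cd8b1 were chosen after their values were seen.

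Within the DN2-3 gate, cells with mitotic genes stood at a lower summed Gimap level in CPM in all 5 libraries, by less than 2-fold. Cells with at least 2 of 8 mitotic genes, such as Top2a and Mki67, stood at 672 CPM against 866 CPM in the other cells of WT, 530 against 778 CPM in Tcf7-/- and 674 against 1106 CPM in Vav-cre. On the Lck-cre plates they stood at 419 against 570 CPM and 570 against 761 CPM. The median per cell did not follow on the Lck-cre plates, with 415 CPM in mitotic cells against 420 CPM on plate 1 and 792 against 761 CPM on plate 2. Gimap6 stood lower in mitotic cells of each library, from 66.8 against 189 CPM in WT to 119 against 142 CPM in Tcf7-/-. So did Gimap1, from 136 against 288 CPM in Tcf7-/- to 223 against 303 CPM in WT. Gimap9 stood at 250 against 290 CPM in WT, 189 against 266 CPM in Tcf7-/- and 180 against 345 CPM in Vav-cre, but at 203 against 188 CPM and 215 against 202 CPM on the Lck-cre plates. Gimap5 stood higher in mitotic cells of WT (113 against 58.9 CPM) and lower in those of Tcf7-/- (15.4 against 50.3 CPM) and Vav-cre (23.5 against 49.2 CPM). The Lck-cre plates went opposite ways, with 18.5 against 48.2 CPM on plate 1 and 80.5 against 56.3 CPM on plate 2. Mitotic cells also carried more counts per cell, with a median of 120874 against 38527 in WT.

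Among genes of naive T-cell quiescence and egress, 10 of 22 were at least 2-fold lower and 3 higher in WT DN2-3 than in WT DN1, with a median log2 ratio of -0.70 beside 0.15 for all measured genes. Of those lower, Slfn1 (-3.77), Ms4a4b (-3.76) and Itgb7 (-3.70) had the largest ratios. In Tcf7-/- the same contrast gave 11 lower and 1 higher, and in Vav-cre 9 lower and 5 higher of 21 measured. Among all measured genes, 11.7% were lower and 16.3% higher in WT, and 17.1% and 8.14% in Tcf7-/-. In Vav-cre these shares were 24.7% and 15.9%. Il7r, encoding the interleukin-7 receptor, stood at 2026, 1059 and 3098 CPM in DN1 of WT, Tcf7-/- and Vav-cre and at 155 to 269 CPM in DN2-3, so that its DN1 order of genotypes was not that of the Gimap family. Il7r was chosen after its values were seen. In Tcf7-/- DN1 against WT DN1, 4 of 22 were lower and 1 higher, beside 5.34% and 10.4% of all genes. In Vav-cre DN1 3 of 22 were lower and 4 higher, with Ccr7 at 3.63, which is near the 9.64% and 18% of all genes.

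Of 12 genes for Bcl2-family proteins, Gabarap-type autophagy proteins and Gsk3b, none passed 2-fold between the gates in WT or between Tcf7-/- DN1 and WT DN1. Among all measured genes, 11.7% were lower and 16.3% higher in the first comparison, and 5.34% and 10.4% in the second. Lower in DN2-3 than in DN1 were Bcl2 (-1.68) in Tcf7-/-, and Gabarapl2 (-1.76), Gabarapl1 (-1.68) and Mcl1 (-1.16) in Vav-cre. Bak1 was lower in Vav-cre DN1 than in WT DN1 (-1.22). These are 1 of 12 genes in Tcf7-/-, 3 of 11 measured in Vav-cre and 1 of 12 in Vav-cre DN1. Among all genes 17.1%, 24.7% and 9.64% were lower in these comparisons, so these counts are near or below the general share. In Tcf7-/- DN2-3 against WT DN2-3, Bcl2, which opposes apoptosis, was lower (-1.54) and Bcl2l1, which also opposes it, was higher (1.16). In Vav-cre DN2-3 against WT DN2-3, Gabarapl1 was lower (-2.36) and Bcl2l1 higher (1.21). Among all measured genes, 10.5% were lower in each of these DN2-3 comparisons, and 3.19% (Tcf7-/-) and 5.77% (Vav-cre) were higher. Bcl2l1 also differed by 1.11 between the Lck-cre plates.

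The genes that flank the cluster had other patterns. Tmem176a and Tmem176b, which encode membrane proteins, stood in DN1 at 186 and 123 CPM in WT, at 652 and 761 CPM in Tcf7-/- and at 1217 and 1449 CPM in Vav-cre, the opposite order to the family. Repin1 stood at 2.95, 8.41 and 22 CPM in DN1 of the same genotypes and at 46.1 to 62.5 CPM in the DN2-3 libraries. Of 9 flanking genes in the file, 4 were measured in WT DN2-3 against WT DN1, with 1 higher and 1 lower. Among all measured genes 16.3% were higher and 11.7% lower. Against WT DN1, 2 of 3 measured were higher in Tcf7-/- DN1 and 4 of 5 in Vav-cre DN1, with none lower. The shares of all genes were 10.4% higher and 5.34% lower in Tcf7-/-, and 18% and 9.64% in Vav-cre.

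Over the 8 libraries, the gene most like the summed family was Cdk17, with a Pearson correlation of 0.97 of log2 levels among 4973 genes with 50 CPM or more in a library. It was followed by Ms4a4b (0.96), Ccnd2, Sema4a, Rps27, Zdhhc18, Ctsd, Prrc2a, Sh2d3c and Oas3 (0.95). Ms4a4b, a membrane protein gene of T cells, fell from 1709 CPM in WT DN1 to 117 CPM in WT DN2-3, and Ccnd2, encoding cyclin D2, stood at 1257 and 673 CPM. These libraries share gates and WT DN1 lies far from the rest, so the values describe 8 points only. Among 81 thinned WT DN1 cells, the genes most like the family were Tbx21 (Spearman correlation 0.59), encoding the transcription factor T-bet, then Dusp2, Klra9, Foxn3, B2m, Bag1, Il2rb, Fgl2, Gzmb and Sh3bgrl3 (0.35).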

How the data were processed

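Single-cell RNA was measured in 768 thymocytes. Per the labels' protocols, cDNA came from an adapted STRT method and was read in pairs, with a Smart-seq2 protocol also named. The submitters' processing notes name TopHat2 2.1.1, HTSeq and mm10, and whether molecular identifiers were collapsed is not given in the sources used here. The authors deposited an unscaled count for every gene in every cell, and also log2 values of scaled expression, which were used here for 1 alternative. Of 23154 entries 27 carried a date in place of a gene symbol and were dropped.

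Cells with fewer than 1000 detected genes were left out, and counts were summed per plate and scaled to CPM. Log2 ratios used a pseudocount of 10 CPM, and a gene counted as measured where either side reached 10 CPM. For Lck-cre, log2 ratios of both plates were averaged. Cells were sorted singly and no doublet caller was run. Intervals are exact: Poisson for a level, conditional binomial for a ratio and Clopper-Pearson for a share. Reads amplified by PCR are not independent molecules. All 8 members were named. Genes like the family were the 10 with the highest correlation with its summed log2 level over libraries, and the 10 with the highest Spearman correlation among thinned WT DN1 cells. They needed 50 CPM and a count in 20% of cells, and neither unnamed gene models nor Xist or Y-linked genes were eligible. From each other list, the 2 to 4 genes with the largest ratio were taken; flanking genes are given by level, and an item that this rule names is not reported here. Members, lists and rules were chosen with earlier results of these data known. Alternatives covered the cell filter, cell weights, low counts, thinning, the highest cell, size factors, the pseudocount, the filter on low values and the marker rule. Ratios and intervals were tested on simulated data. Python 3.11.15, numpy 2.4.6, pandas 2.3.3, scipy 1.17.1 and matplotlib 3.10.9 were used.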

Additional observations from a re-analysis of the deposited data

Results flagged for a closer look

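Gimap4 moved in opposite directions in the 2 gates. In Tcf7-/- against WT its log2 ratio was -1.19 in DN1 and 1.54 in DN2-3, a difference of 2.73. In Vav-cre against WT it was -2.00 in DN1 and 1.27 in DN2-3, a difference of 3.27. Gimap7 did so in Vav-cre against WT, with -1.91 in DN1 and 1.15 in DN2-3, a difference of 3.05. Between the gates, Gimap7 was lower in DN2-3 in Tcf7-/- (-1.55) and higher in Vav-cre (2.1), a difference of 3.65. Each of these rests on 1 library per side, so the difference was not tested. Gimap7 had 2 counts in Vav-cre DN1 and 14 in Tcf7-/- DN2-3. Gimap4 had 34 counts in WT DN2-3, 22 of them in 1 NK receptor-positive cell. In the deposited log2 values its DN2-3 differences were 0.32 in Tcf7-/- and 0.48 in Vav-cre. Among NK receptor-positive DN1 cells its log2 ratio to WT was -0.27 in Tcf7-/- and 0.06 in Vav-cre. In the other DN1 cells it was -1.38 and -3.40.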

How the results depend on the processing

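No paired analysis was possible because the replicate numbers that plates share are well barcodes and each result comes from no test. Movement was judged against the SD of the log2 family level between the Lck-cre plates, 0.32. Family levels kept within it under every alternative except 1: leaving out the highest cell of each gene put Vav-cre DN1 at 814 CPM, below Vav-cre DN2-3 (880 CPM), and its log2 ratio to WT DN1 at -1.62. Without NK receptor-positive cells, the family's log2 ratio of DN2-3 to DN1 was -0.85 in WT, -0.32 in Tcf7-/- and 0.45 in Vav-cre, and that of Gimap4 in Vav-cre turned from -2.47 to 0.12. The deposited log2 values gave no family sum. As means over cells they put Gimap4 at 0.32 in Tcf7-/- and 0.48 in Vav-cre against WT DN2-3, Gimap5 at -0.57 in Tcf7-/- against WT DN2-3, and Gimap4 between the gates of Vav-cre at -0.51, each under 2-fold. Gimap5 and Gimap8 between the gates were then at -0.81 and -0.73 in Tcf7-/- and at -0.34 and -0.99 in Vav-cre, and Gimap7 at -0.49 and 0.97. Gimap7 in Vav-cre was at -0.61 against WT DN1, -0.55 against Tcf7-/- DN1 and 0.73 against WT DN2-3. Without 1 Lck-cre plate, the family's log2 ratio to WT DN2-3 was -0.64 to -0.19.

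The share of cells with any member moved with the count required. With more than 5 counts it was 91.9%, 67.7% and 65.5% in WT, Tcf7-/- and Vav-cre DN1, 80.7%, 82.8% and 81.6% in DN2-3 of the same genotypes, and 74.7% and 75.9% on the Lck-cre plates. With thinned cells it was 91.8% in Tcf7-/- DN1, 91% in Tcf7-/- DN2-3 and 84.7% on Lck-cre plate 1. With more than 5 counts the median Tcf7-/- DN1 cell held 1 member. Other marker rules gave 1751 CPM (2 markers with 2 counts, NK receptor-positive, Tcf7-/- DN1), 1232 CPM (3 markers, LTi list, WT DN1) and 2266 CPM (10 counts, CD3-positive, Tcf7-/- DN1).

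Counts of members at least 2-fold apart moved by over 1.5-fold in 22 cases for lower and 11 for higher members. With a pseudocount of 50 CPM, the members lower in DN1 than in WT numbered 1 in place of 2 in Tcf7-/- and 2 in place of 5 in Vav-cre. With thinned cells the former numbered 0. Without NK receptor-positive cells these counts were 4 and 3, and those lower in DN2-3 than in DN1 were 3 in place of 5 in both WT and Tcf7-/-. The latter was also 3 with a pseudocount or a filter of 50 CPM. Members lower in Vav-cre than in Tcf7-/- DN1 numbered 1, but 0 with either setting of 50 CPM, and 2 with the stricter cell filter, equal weights, thinning, or without the highest or NK receptor-positive cells. Members higher there numbered 0, but 1 with equal weights or without NK receptor-positive cells. In Tcf7-/- against WT DN2-3, the 1 higher member was lost with either setting of 50 CPM. The 1 lower member became 0 with equal weights or that pseudocount, and 2 with a pseudocount of 1 CPM. In Vav-cre DN2-3 the 2 members higher than in WT became 1 with counts of 1 to 5 set to 0 or thinning, and 0 with either setting of 50 CPM. The 2 higher than in DN1 became 1 with the latter. Lck-cre against WT had none, but 1 lower with equal weights, thinning or a pseudocount of 1 CPM, and 1 higher with the last. Gimap3 stayed at least 2-fold lower in DN2-3 than in DN1 under every alternative run, in WT, Tcf7-/- and Vav-cre, and Gimap4 did so in WT and Tcf7-/-.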
